A study of Homo sapiens with 7 samples.

Results

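Integrins and laminins are the receptors and ligands through which cells hold on to basement membranes, and 38 of their genes were followed on arrays of Daoy cells. The members were taken by symbol: integrin alpha subunits (18 genes), integrin beta subunits (8 genes) and laminin alpha, beta and gamma chains (5, 4 and 3 genes). They were read by 41 of the 24000 rows of the array table, 28 rows for integrins and 13 for laminins, because a gene could have more than 1 row (ITGB4 had 3). All 38 genes that the symbols can name were found. The members were chosen with earlier results of these data known.

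Daoy is an established human medulloblastoma line, here wild type and untreated. It was kept in MEM (Richter's modification) plus 10% FBS, penicillin and streptomycin. Gene expression was measured on 7 single-colour arrays: biological replicate 2 had 4 and biological replicate 1 had 3, its array 3 being not analysed here. Both replicates are the same line, wild type and untreated, so the only contrast is between the 2 biological replicates. Any differences of culture or of slide between the replicates cannot be told apart. Arrays of 1 replicate were taken as repeat readings of 1 sample, but the labels do not state what the array number stands for. A p-value below measures the spread between arrays, which may be technical.

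An integrin is a pair of 1 alpha and 1 beta subunit that spans the membrane. Its outer part grips a matrix protein, and the tail of the beta subunit is joined to actin through talin and kindlin, or to intermediate filaments in the case of the beta-4 subunit. The pairing decides the ligand: some pairs bind laminin, some bind collagen, some read the short RGD peptide of fibronectin and vitronectin, and the pairs of beta-2 serve the contacts of leukocytes. A laminin is a cross-shaped trimer of 1 alpha, 1 beta and 1 gamma chain, named by the numbers of its chains in that order, and it forms the sheet on which a basement membrane is built. In the brain, laminins line the pial surface and the vessels.

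Values are log2 intensities on quantile-normalized arrays, with a median of 8.15 on every array. A level is the mean of the 2 replicate means, given with the SD over the replicates (n = 2). That SD leaves out the spread between the arrays of a replicate. A row was called above background when its level was over 7.54. That line is the 95th percentile of 364 genes for olfactory receptors, whose median level was 5.79. The same background was 7.24 in replicate 2 alone and 7.79 in replicate 1 alone. Intensity also depends on how well a probe hybridises, so the levels of different genes are not ranked, and a value at background does not show that a transcript is missing. Pearson's r across rows was 0.985 to 0.994 between arrays of a replicate and 0.948 to 0.962 between arrays of different replicates. Genes that mark the mesenchymal state of this line were above background in 4 of 4 cases (VIM, COL1A1, CD44 and TNC), and 0 of 8 leukocyte markers were, with PTPRC at 5.72 ± 0.16. Of the 31 measured markers of leukocytes, platelets, red cells, keratinocytes, endothelium, striated muscle and neurons, 5 were above background. These were GP1BA of platelets, TP63 of keratinocytes, PECAM1 and TEK of endothelium and SYP of neurons.

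Of the 41 rows of integrins and laminins, 26 lay above background (63.4%), against 57.2% of all 24000 rows. They belonged to 24 of the 38 genes, where 61% of all named genes were above background by their brightest row. Beta subunits were above background for 6 of 8 genes and laminin chains for 10 of 12, whereas alpha subunits were for 8 of 18.

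Among the beta subunits, ITGB1, ITGB3, ITGB4, ITGB5, ITGB7 and ITGB8 were above background, and ITGB2 and ITGB6 were not. ITGB1, the shared beta subunit of the largest integrin group, read 12.74, 12.74, 12.93 and 12.89 on the arrays of replicate 2 and 12.05, 11.84 and 12.14 on those of replicate 1. The arrays did not overlap, and the row was 0.81 ± 0.11 (SE) higher in replicate 2 (limma, adjusted p = 0.000267). ITGB5, which pairs with the alpha-V subunit and binds vitronectin, moved the other way, with 12.19, 12.28, 12.03 and 11.99 in replicate 2 and 12.83, 12.88 and 12.63 in replicate 1. It fell by 0.65 ± 0.11 (SE; limma, adjusted p = 0.0011). ITGB3, the beta subunit of the platelet and osteoclast receptors, was at 8.95 ± 0.17 and its arrays overlapped between the replicates, with 8.35 on array 2 of replicate 2 and 8.88 to 9.17 on the other 6 arrays. ITGB8, known from activation of latent TGF-beta, at 9.78 ± 0.10, and ITGB7, known from gut-homing lymphocytes, at 9.63 ± 0.0034, did not pass the test between replicates (limma, adjusted p = 0.402 and 0.975). The 95% interval of the difference was -0.16 to 0.45 for ITGB8 and -0.23 to 0.24 for ITGB7.

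ITGB4, the beta subunit of hemidesmosomes, was read by 3 rows, each for a RefSeq transcript. The row NM_000213 was at 11.22 ± 0.31, NM_001005731 at 10.12 ± 0.41 and NM_001005619 at 8.45 ± 0.10. In replicate 2 the first of them read 11.52, 11.50, 11.44 and 11.30, against 11.10, 10.98 and 10.92 in replicate 1. The first and the second rose by 0.44 ± 0.10 and 0.57 ± 0.13 (SE; limma, adjusted p = 0.00451 and 0.0047). The third differed by 0.14 ± 0.16 (SE), with an adjusted p of 0.5 in limma. Its 95% interval of -0.22 to 0.51 holds the 0.44 of the first row but not the 0.57 of the second. Whether the rows differ from each other was not tested. Averaged over the 3 rows, ITGB4 was 0.39 higher in replicate 2 (limma, adjusted p = 0.00542).

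The beta subunits at background were ITGB2 of leukocytes, at 6.37 ± 0.34, and ITGB6 of epithelia, at 7.43 ± 0.10. ITGB6 read 7.37, 7.33, 7.38 and 7.34 in replicate 2 and 7.57, 7.40 and 7.53 in replicate 1. It exceeded the background of replicate 2 and not that of replicate 1, although its mean was 7.35 in replicate 2 and 7.50 in replicate 1.

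The alpha subunits above background were ITGA2, ITGA3, ITGA4, ITGA5, ITGA6, ITGA7, ITGA11 and ITGAV. ITGAV, which pairs with 5 beta subunits, read 11.25, 11.25, 11.33 and 11.41 on the arrays of replicate 2 and 10.14, 10.05 and 10.05 on those of replicate 1. All arrays of replicate 2 were above all those of replicate 1, and the difference of 1.23 ± 0.09 (SE) was 2.35-fold (limma, adjusted p = 1.28e-05). ITGA5, the fibronectin receptor subunit, read 13.05, 13.15, 12.91 and 13.03 in replicate 2, against 12.69, 12.77 and 12.59 in replicate 1, with no overlap. It rose by 0.35 ± 0.10 (SE; limma, adjusted p = 0.0137), a call that ended without array 4 of replicate 1 (limma, adjusted p = 0.052).

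The 2 collagen receptor subunits above background moved in opposite directions. ITGA2, of the receptor for collagen on platelets and epithelia, read 10.49, 10.66, 10.69 and 10.63 in replicate 2 and 9.30, 9.65 and 9.70 in replicate 1. It was 1.07 ± 0.12 (SE) or 2.10-fold higher in replicate 2 (limma, adjusted p = 9.99e-05). ITGA11, of the collagen receptor of fibroblasts, read 10.56, 10.42, 10.12 and 10.63 in replicate 2 and 11.21, 11.14 and 11.25 in replicate 1. It fell by 0.77 ± 0.13 (SE; limma, adjusted p = 0.00114). For neither gene did arrays of the replicates overlap.

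ITGA3, ITGA6 and ITGA7, the alpha subunits of laminin receptors, were all above background. ITGA3, whose pair with beta-1 binds the laminins of alpha-3 and alpha-5, read 11.16, 11.21, 11.11 and 10.99 in replicate 2 and 10.58, 10.43 and 10.34 in replicate 1, and it rose by 0.67 ± 0.10 (SE; limma, adjusted p = 0.000535). ITGA6, which pairs with beta-1 and with beta-4, read 8.11, 7.97, 8.28 and 8.06 in replicate 2 and 8.33, 8.05 and 7.997 in replicate 1. ITGA7, the laminin receptor subunit known from muscle, was at 9.36 in replicate 2 and 9.35 in replicate 1. The arrays of both genes overlapped, and the 95% intervals of their differences ran from -0.28 to 0.25 for ITGA6 and from -0.27 to 0.27 for ITGA7.

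ITGA4, which binds VCAM1 and fibronectin, lay close to background. Its arrays read 8.43, 8.56, 8.48 and 8.23 in replicate 2, and 7.45, 7.42 and 7.54 in replicate 1, where the background was 7.79. It was therefore at least 1.55-fold higher in replicate 2, the fold being taken against that background (limma, adjusted p = 9.52e-05).

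The other 10 alpha subunits were at background, with levels from 5.60 for ITGAD to 7.17 for ITGA8. They were the collagen receptor subunits ITGA1 (7.07 ± 0.06) and ITGA10 (6.32 ± 0.31), ITGA8 and ITGA9 (6.98 ± 0.12), the platelet subunit ITGA2B (6.77 ± 0.04) and the leukocyte subunits ITGAD, ITGAE (6.82 ± 0.22), ITGAL (5.84 ± 0.16), ITGAM (6.80 ± 0.37) and ITGAX (6.85 ± 0.85). ITGAX read 7.60, 7.19, 7.37 and 7.65 in replicate 2 and 5.93, 6.29 and 6.55 in replicate 1 (limma, adjusted p = 0.000353). Its replicate 2 mean of 7.45 was above the background of replicate 2 and below that of replicate 1, so no fold is given. ITGAE, ITGAM and ITGB2 also passed as higher and ITGA10 as lower, but their means were below background in both replicates, and no size is given for them. The call of ITGA10 ended without array 1 of replicate 1 (limma, adjusted p = 0.0753), and that of ITGAM without array 1 or array 2 of replicate 1 (limma, adjusted p = 0.0649 and 0.0549). The call of ITGB2 ended without array 1 or array 4 of replicate 1, and without array 2 or array 4 of replicate 2 (limma, adjusted p = 0.0519 to 0.107).

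**Figure D1:**
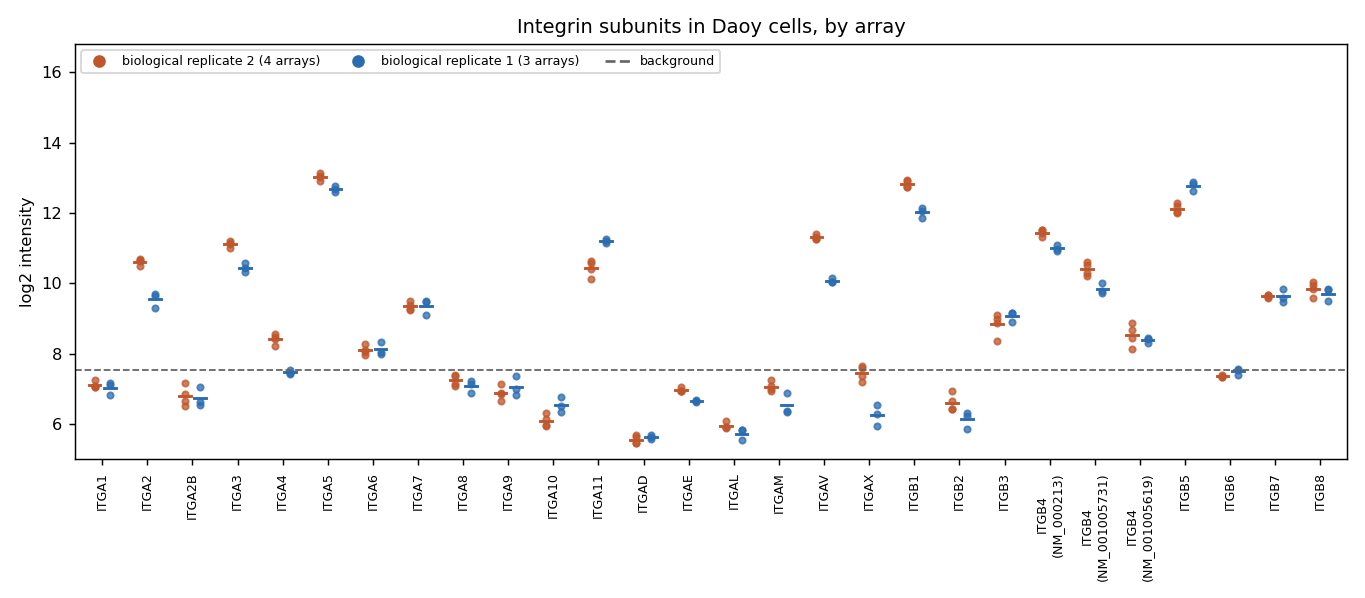
Log2 intensity of the 28 integrin rows on each array, with the 4 arrays of biological replicate 2 left of the 3 arrays of replicate 1, a bar at each replicate mean and the background of 7.54 as a dashed line. ITGAV, ITGB1 and ITGA2 lie higher in replicate 2, ITGA11 and ITGB5 lower, and 12 of the 28 rows lie below the line.

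Receptor pairs were then read from the transcripts, a pair being counted when both of its subunits were above background. This says which pairs could form, not which did, since protein and pairing were not measured. Of the 24 known human pairs, 13 met the count. All 4 laminin receptors did (alpha-3, alpha-6 and alpha-7 with beta-1, and alpha-6 with beta-4), as did 5 of 8 RGD receptors (alpha-5 and alpha-V with beta-1, and alpha-V with beta-3, beta-5 and beta-8) and 2 of 4 collagen receptors (alpha-2 and alpha-11 with beta-1). ITGA4 gave a pair with each of its partners, beta-1 and beta-7. Of the 11 pairs that did not count, 6 lacked only the alpha subunit, 1 lacked only the beta subunit ITGB6, and the 4 pairs of ITGB2 lacked both. Against its own background, replicate 2 had 15 pairs and replicate 1 had 11. The pairs that differed held ITGA4, ITGA8 or ITGB6, and the backgrounds themselves differed, at 7.24 in replicate 2 and 7.79 in replicate 1.

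The subunits of 1 pair did not always move together. In the vitronectin receptor of alpha-V and beta-5, ITGAV rose by 1.23 and ITGB5 fell by 0.65, while ITGB8 (0.15 ± 0.13, SE) and ITGB3 (-0.24 ± 0.17, SE) did not pass. Without single arrays these differences ran from 0.039 (without array 1 of replicate 1) to 0.24 (without array 1 of replicate 2) for ITGB8, and from -0.33 (without array 2 of replicate 1) to -0.078 (without array 2 of replicate 2) for ITGB3. For the laminin receptor of alpha-3 and beta-1, both ITGA3 and ITGB1 rose. For the receptor of alpha-6 and beta-4, ITGB4 rose by its brightest row and ITGA6 did not pass.

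**Figure D2:**
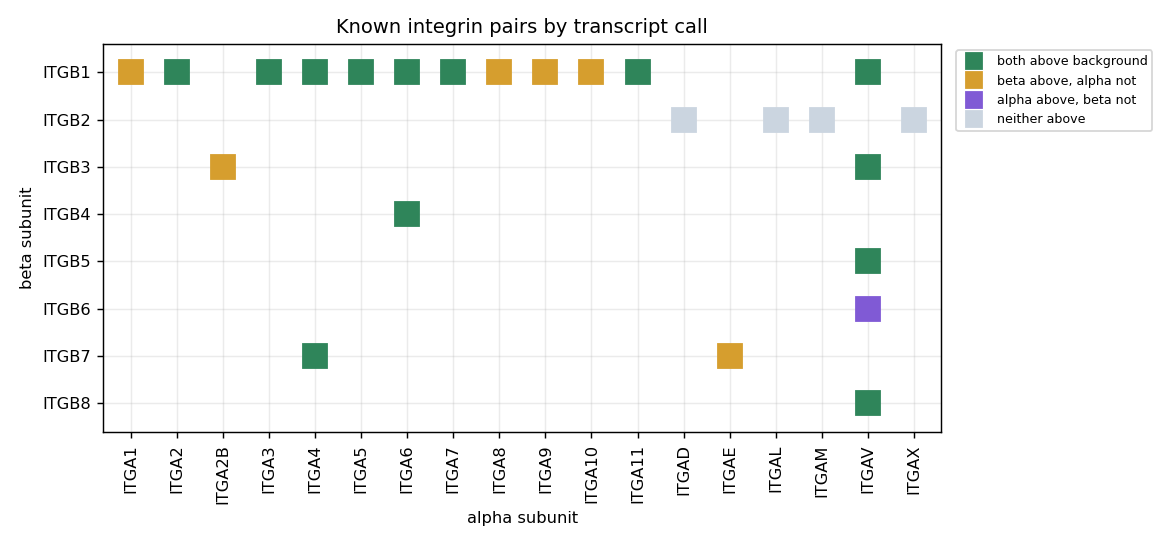
The 24 known integrin pairs on a grid of alpha subunits (columns) and beta subunits (rows), coloured by which subunits lay above background. The 13 pairs with both above lie in the rows of ITGB1 (8), ITGB3, ITGB4, ITGB5, ITGB7 and ITGB8, and the 4 pairs of ITGB2 have neither.

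All 5 laminin alpha chains were above background. LAMA4, the alpha chain of vessel and mesenchymal laminins, read 12.04, 12.23, 11.98 and 11.95 in replicate 2, against 12.64, 12.55 and 12.44 in replicate 1, and it fell by 0.50 ± 0.10 (SE; limma, adjusted p = 0.00347). LAMA1, of the first laminin of the embryo, read 8.93, 9.25, 9.11 and 8.81 in replicate 2 and 9.69, 9.77 and 9.47 in replicate 1. It fell by 0.62 ± 0.13 (SE; limma, adjusted p = 0.00359). For both genes every array of replicate 2 was below every array of replicate 1.

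LAMA3 and LAMA5, whose laminins are both ligands of the alpha-3 beta-1 receptor, went in opposite directions. LAMA3 read 7.73, 7.98, 7.998 and 8.06 in replicate 2 and 9.27, 8.83 and 9.25 in replicate 1. It fell by 1.18 ± 0.14 (SE), so that replicate 1 was 2.26-fold higher (limma, adjusted p = 0.00014). LAMA5 read 9.15, 8.95, 8.83 and 8.74 in replicate 2 and 8.07, 7.67 and 7.91 in replicate 1. It was 1.03 ± 0.13 (SE) or 2.05-fold higher in replicate 2 (limma, adjusted p = 0.000235), and its mean in replicate 1, 7.88, was close to the background there. LAMA2, of the laminin of muscle and nerve, was at 8.55 ± 0.19 and did not pass (limma, adjusted p = 0.277). Its arrays of replicate 1 were spread over 9.13, 8.22 and 8.72, and without array 2 of that replicate it was lower by 0.50 in replicate 2, with an adjusted p of 0.0198 in limma.

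Of all members, LAMB3 had the largest difference and LAMB1 the largest fall. LAMB3, a beta chain of epithelial laminin, read 10.59, 10.64, 10.43 and 10.39 in replicate 2 and 8.80, 8.50 and 8.65 in replicate 1. The gap between the replicates was wider than the range within either, and the difference was 1.86 ± 0.11 (SE) or 3.63-fold (limma, adjusted p = 5.36e-06). LAMB1, a beta chain that joins gamma-1 in many laminins, read 13.83, 13.97, 13.94 and 13.74 in replicate 2 and 15.16, 15.07 and 14.94 in replicate 1. It fell by 1.19 ± 0.10 (SE), so that replicate 1 was 2.28-fold higher (limma, adjusted p = 2.69e-05). LAMB2, which takes the place of beta-1 in laminins of synapse, kidney and vessel, was at 11.98 ± 0.06, and its 95% interval of -0.34 to 0.17 included no difference. LAMB4 was at background, at 5.81 ± 0.11.

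Among the gamma chains, LAMC1, which is part of most laminins, was at 11.95 ± 0.02 and read 11.78, 11.98, 12.05 and 11.91 in replicate 2 and 11.88, 12.01 and 12.01 in replicate 1. Its arrays overlapped and its 95% interval ran from -0.26 to 0.19. LAMC3 read 8.83, 9.02, 8.78 and 8.55 in replicate 2 and 9.51, 9.56 and 9.18 in replicate 1, and fell by 0.62 ± 0.14 (SE; limma, adjusted p = 0.00496).

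**Figure D3:**
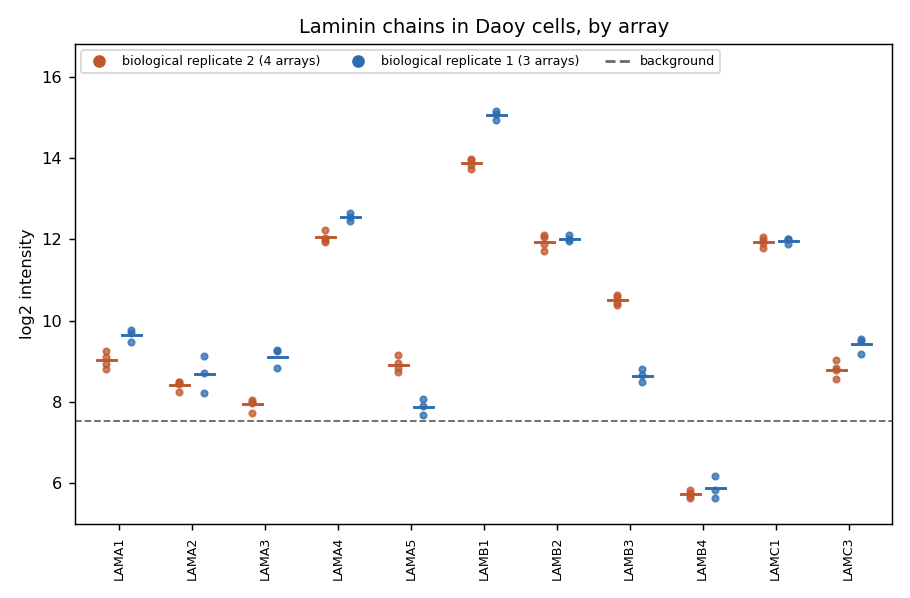
Log2 intensity of the named laminin rows on each array, with the 4 arrays of biological replicate 2 left of the 3 arrays of replicate 1, a bar at each replicate mean and the background of 7.54 as a dashed line. LAMB3 and LAMA5 lie higher in replicate 2, LAMB1 and LAMA3 lower, and LAMB4 lies below the line.

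By the same count, 13 known laminin trimers could form from the transcripts above background. They were 111, 121, 211, 221, 213, 311, 321, 411, 421, 423, 511, 521 and 523. Each of these holds LAMC1 or LAMC3 with LAMB1 or LAMB2, and the same 13 counted in replicate 2 and in replicate 1 against their own backgrounds. With the stricter background of 8.42, the 99th percentile of olfactory receptor genes, LAMA5, ITGA4 and ITGA6 dropped out, which left 10 trimers and 9 integrin pairs.

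Some members are neighbours in the genome. By the RefSeq gene table of GRCh38.p14, LAMB1 and LAMB4 on chromosome 7 have 0 other protein-coding genes between them. LAMB1 was well above background, at 14.46 ± 0.84, and LAMB4 was at background. On chromosome 5, with 1 protein-coding gene between them, ITGA1 was at background and ITGA2 above it. The leukocyte subunits ITGAM, ITGAX and ITGAD stand in a row on chromosome 16, and all 3 were at background.

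The laminin chains LAMB3, LAMA5, LAMB1 and LAMA3, each apart by over 1 log2 unit, are shown by the bases just before their start, because they moved in opposite directions. Each sequence is the 250 bases up to the start of transcription on the strand of the gene, 5′ to 3′, from RefSeq (GRCh38.p14). Capitals mark the letters of an AP-1 motif (TGANTCA) or of a GC box (GGGCGG), searched on both strands, so that a GC box on the other strand reads CCGCCC. The first pair was higher in replicate 2 and the second pair lower.
LAMB3, chr1:209652426-209652675, minus strand: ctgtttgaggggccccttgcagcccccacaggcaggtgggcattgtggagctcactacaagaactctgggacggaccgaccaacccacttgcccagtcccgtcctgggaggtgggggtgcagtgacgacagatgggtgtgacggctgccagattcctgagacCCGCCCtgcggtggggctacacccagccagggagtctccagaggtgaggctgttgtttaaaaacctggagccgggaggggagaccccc
LAMA5, chr20:62367313-62367562, minus strand: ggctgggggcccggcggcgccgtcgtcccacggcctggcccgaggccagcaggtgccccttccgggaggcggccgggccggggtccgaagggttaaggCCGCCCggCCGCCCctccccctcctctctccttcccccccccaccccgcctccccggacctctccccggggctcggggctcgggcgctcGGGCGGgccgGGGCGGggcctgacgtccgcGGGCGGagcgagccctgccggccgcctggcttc
LAMB1, chr7:108003162-108003411, minus strand: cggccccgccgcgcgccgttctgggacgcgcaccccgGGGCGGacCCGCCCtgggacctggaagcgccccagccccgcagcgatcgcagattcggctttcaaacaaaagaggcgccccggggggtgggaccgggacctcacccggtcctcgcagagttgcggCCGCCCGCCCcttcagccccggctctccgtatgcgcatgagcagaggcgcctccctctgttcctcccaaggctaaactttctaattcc
LAMA3, chr18:23872770-23873019, plus strand: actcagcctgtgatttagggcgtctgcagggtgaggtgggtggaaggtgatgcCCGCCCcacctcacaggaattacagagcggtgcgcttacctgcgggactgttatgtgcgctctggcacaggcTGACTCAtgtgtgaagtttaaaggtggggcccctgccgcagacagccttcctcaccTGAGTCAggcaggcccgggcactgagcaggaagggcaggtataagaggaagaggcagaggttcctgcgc

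The window of LAMA3 held 2 AP-1 motifs, beginning 125 and 69 bases before the start, and 1 GC box. LAMA5 held 5 GC boxes, LAMB1 held 4, of which the 2 nearest the start overlap, and the printed window of LAMB3 held 1. The table lists 3 starts for LAMB3, and the window of the one farthest downstream held an AP-1 motif 67 bases before it. Promoters were found for 26 of the 38 member genes, and over the first listed start of each gene 1 of 26 held the AP-1 letters and 13 of 26 a GC box. Among 27305 promoters of the same length, 6.6% held the AP-1 letters and 42.3% a GC box. The letters TATAAA occurred in 1 of 26 member promoters and in 11.1% of all. Such a match is a description of the letters and not a binding site.

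Between the replicates, 22 of the 41 member rows passed the threshold (limma over all 24000 rows, Benjamini-Hochberg adjusted p under 0.05), or 53.7%, against 48.8% of all rows. Higher in replicate 2 were 14 rows (34.1%), against 24.6% of all rows, and lower were 8 (19.5%), against 24.2%. By at least 1 on the log2 scale, 5 member rows were higher (12.2%), against 5.43% of all rows, and 2 were lower (4.88%), against 4.79%. The 5 include ITGAX, whose level was at background and for which no fold is given. In 25 member rows (61.0%) the arrays of replicate 2 lay all above or all below those of replicate 1, against 51.7% of all rows. The share called in both directions together was thus near that of all rows. The share of higher rows was above that of all rows, which is a description with no test. By family, 12 integrin rows were higher and 3 lower, with a median difference of 0.15, while 2 laminin rows were higher and 5 lower, with a median of -0.15. The median over all rows was -0.01. Above background alone, 8 integrin rows were higher and 2 lower, and 2 laminin rows were higher and 5 lower. No share over all rows above background was taken, so these counts have nothing to be set against. The integrin count holds both the first and the second row of ITGB4.

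**Figure D4:**
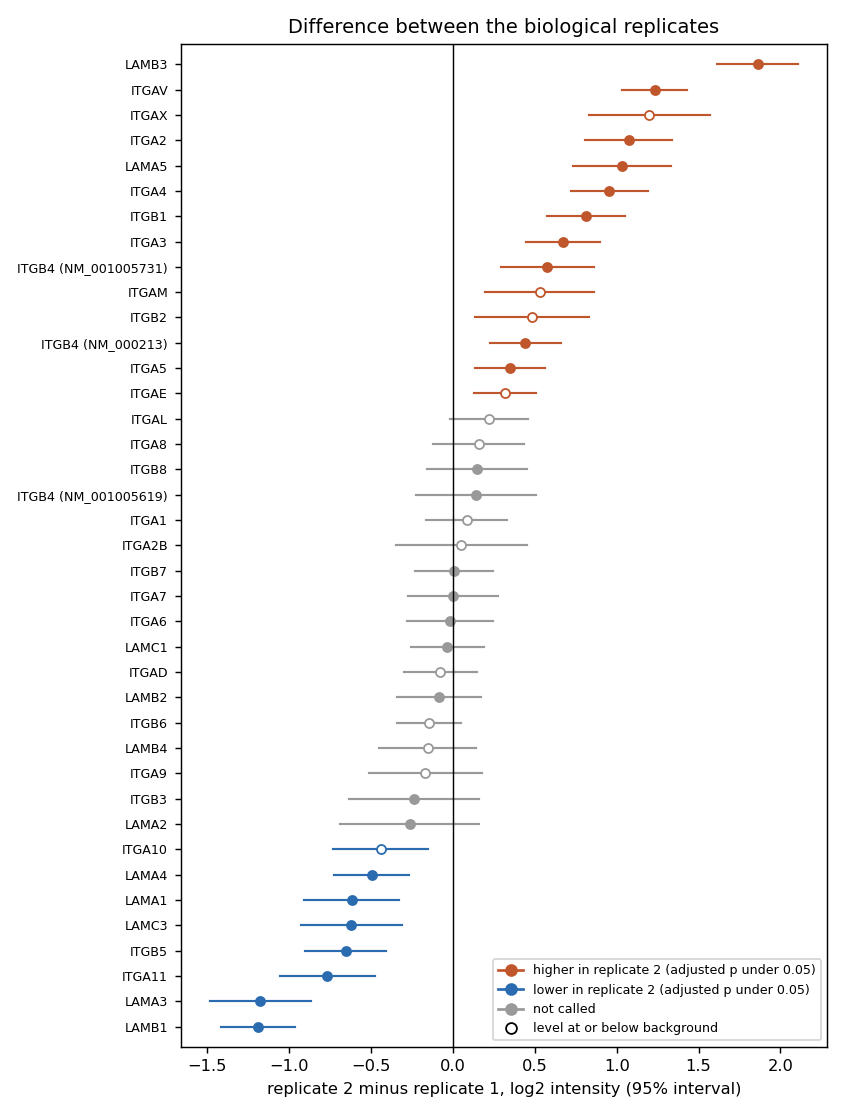
Difference in log2 intensity, replicate 2 minus replicate 1, for the named member rows with the 95% interval from limma, in order of size; colour shows the call and open points show a level at or below background. LAMB3 (1.86) and ITGAV (1.23) are at the top, LAMA3 (-1.18) and LAMB1 (-1.19) at the bottom, and grey rows were not called.

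Other genes of cell adhesion were followed through their brightest row. Their lists were chosen with earlier results of these data known, so the shares below are descriptions with no test. Of 43 measured adaptors and signalling proteins of adhesion sites, 37 were above background (86.0%), as were 21 of 29 genes of the basement membrane and other laminin receptors (72.4%) and 27 of 39 ligands of integrins (69.2%), against 61% of all named genes. Among the adaptors 14 were higher in replicate 2 and 10 lower, with a median difference of -0.02. In the basement membrane list 13 were higher and 4 lower, with a median of 0.18, and among the ligands 11 were higher and 9 lower, with a median of 0.06. Over all named genes 25.3% were higher and 23.5% lower, with a median of -0.01.

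Among the adaptors, DST, which ties the beta-4 integrin to keratin filaments in its epithelial form, read 10.59, 9.58, 10.36 and 10.80 in replicate 2 and 12.44, 12.67 and 12.54 in replicate 1. It fell by 2.22 ± 0.25 (SE; limma, adjusted p = 0.000117). Which form of DST this row reads was not determined. PLEC, the other plakin that binds beta-4, rose by 0.99 (limma, adjusted p = 6.78e-05), and was named after its value was seen. PTK2, the focal adhesion kinase, averaged 10.87 in replicate 2 and 12.12 in replicate 1, and fell by 1.25 ± 0.16 (SE; limma, adjusted p = 0.000254). BCAR1, a docking protein that this kinase acts on, read 9.82 to 9.97 in replicate 2 and 8.63 to 8.91 in replicate 1, and rose by 1.13 ± 0.10 (SE; limma, adjusted p = 3.15e-05). TLN1, the talin that binds the tails of beta subunits, was at 13.22 ± 0.33 and fell by 0.46 (limma, adjusted p = 0.00311), as did the adaptor ILK, by 0.29 (limma, adjusted p = 0.0316). The kindlin FERMT2, at 11.11 ± 0.03, did not pass (limma, adjusted p = 0.708). TLN1, ILK and FERMT2 were also named after their values were seen. They do not stand for the list, in which 14 adaptors were higher and 10 lower.

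In the basement membrane list, NTN1, a netrin with laminin-like domains, averaged 8.54 in replicate 2 and 6.78 in replicate 1, which lies below the background there, and was at least 1.68-fold higher (limma, adjusted p = 1.17e-05). FRAS1, of the matrix complex under epithelia, averaged 8.94 in replicate 2 and 10.33 in replicate 1, and fell by 1.39 ± 0.15 (SE; limma, adjusted p = 9.64e-05). SGCA, a muscle sarcoglycan, was at 7.25 in replicate 2 and 6.11 in replicate 1, too near background for a fold. The linker of laminin and collagen networks NID1 was at 12.56 ± 0.0015 and the laminin receptor DAG1 at 10.99 ± 0.05, and neither passed the test. BCAM, a receptor for laminins with alpha-5, was at 10.69 ± 0.37 and rose by 0.52 (limma, adjusted p = 0.00142).

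For the ligands, POSTN, periostin, averaged 9.36 in replicate 2 and 7.66 in replicate 1, below the background there, and was at least 2.96-fold higher (limma, adjusted p = 6.84e-06). COL6A1, a chain of collagen VI, read 14.41, 14.41, 13.82 and 14.11 in replicate 2 and 12.77, 13.33 and 13.01 in replicate 1, a difference of 1.15 ± 0.18 (SE; limma, adjusted p = 0.000731). THBS1, thrombospondin, averaged 11.53 in replicate 2 and 12.45 in replicate 1, and fell by 0.92 ± 0.11 (SE; limma, adjusted p = 0.000169). Ligands for the counted pairs included FN1 (14.43 ± 0.01) for alpha-5 beta-1 and VCAM1 (11.83 ± 0.35) for alpha-4 beta-1. Single arrays ran from 13.824 to 14.979 for FN1 and from 10.773 to 12.565 for VCAM1. VTN, the namesake ligand of alpha-V beta-5, was at background (6.66 ± 0.31), and MADCAM1 of alpha-4 beta-7 was too (6.26 ± 0.60). The growth medium held serum, which brings matrix proteins that these arrays do not read.

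**Figure D5:**
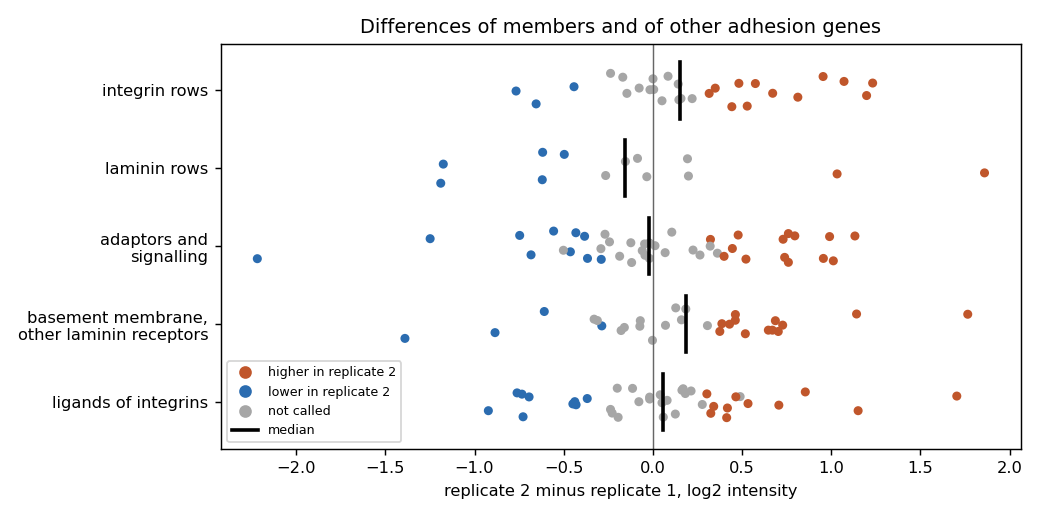
Difference in log2 intensity, replicate 2 minus replicate 1, for each integrin and laminin row and for the brightest row of each gene in 3 lists of other adhesion genes, coloured by call, with a bar at the median. Medians lie at 0.15 for integrins, -0.15 for laminins, -0.02 for adaptors, 0.18 for the basement membrane list and 0.06 for ligands.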

How the data were processed

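The authors deposited log2 intensities, with 24000 rows on every array, each identified by its RefSeq transcript. Per the submitters' processing notes, RMA and limma were used, without versions. The base of the logarithm was taken as 2 from RMA's convention and the range of 5.25 to 15.46. Once sorted, the 7 columns matched within 0.002, as quantile normalization leaves them. Probe values and detection calls were not used here, the genome build was not given in the sources, and the number of arrays limits precision.

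Accessions without version were named through RefSeq's GRCh38.p14 table (19125 rows matched, 4875 did not). Members and lists were chosen with earlier results of these data known. A member stays in the counts but is not reported here by name. All other members are named, and for each list the 3 largest called differences whose brighter replicate was above background, with further list genes (PLEC, TLN1, FERMT2, ILK, NID1, DAG1, BCAM, FN1, VCAM1, VTN, MADCAM1) chosen after their values were seen. Replicate 2 minus replicate 1 was fitted on all rows with limma 3.58.1 in R 4.3.3 (lmFit, eBayes, Benjamini-Hochberg 0.05), and the step was tested on simulated data. Where only 1 replicate was above its own background, a fold is a lower limit against the other's. Same-numbered arrays deviated together (r = 0.21, 0.35 and 0.40 across rows for arrays 1, 2 and 4), so the array number was taken to pair them, by this check and not by the labels, and a fit with it as a replicate block was run beside the unpaired one. Other alternatives changed the background, the filter, the row averaging, the variance prior, the scaling and the arrays used.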

Additional observations from a re-analysis of the deposited data

Results flagged for a closer look

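In ITGAE, 1 of the 4 arrays of replicate 2 stood apart: array 4 read 7.06 and the other 3 read 6.95 each. The gap was 0.94 of the range, and the range itself was small. All values lay below background. This was the 1 case among 41 member rows examined, and chance alone marks about 1 in 20.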

How the results depend on the processing

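With the array number as a replicate block (paired fit), 14 member rows were higher and 8 lower, the same counts as without it, and no call on a member row changed. A smallest difference of 1 on the log2 scale left 5 rows higher and 2 lower. Without each array in turn, 12 to 14 rows were higher and 7 to 9 lower. Counts of rows above background (23 to 26), of pairs (9 to 13) and of trimers (10 to 13) stayed within 1.5 times over all alternatives run. Differences of single rows kept direction and call in 452 of 477 refits. In 8 refits a call ended and in 2 one appeared. In 15 the sign of a difference turned, always in rows with no call in either fit. ITGA7 was at -0.045 with the replicate block. Without single arrays the differences ran from -0.12 to 0.075 for ITGA7, -0.080 to 0.086 for ITGA6, -0.068 to 0.21 for ITGA2B, -0.019 to 0.15 for ITGA1, -0.078 to 0.11 for ITGB7 and -0.077 to 0.017 for LAMC1.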
